A study of Mus musculus with 6 samples.

Results

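The Trim genes encode the tripartite motif proteins, and their binding by C/EBPα, IRF8 and JUNB was followed in mouse bone marrow-derived macrophages with and without IL-4. Members were all peaks whose nearest annotated gene carried a symbol starting with Trim and a digit. There were 359 such peaks among 134964 in 6 peak lists, and they lay at 154 of the 60847 regions that the merged lists covered. They named 48 of the 68 protein-coding Trim genes in the RefSeq table. The other 20, among them Trim5, Trim23, Trim30c, Trim34b, Trim38 and Trim80, had no peak under their own name.

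Bone marrow cells of wild-type C57BL/6 mice aged 8 to 12 weeks were differentiated for 6 days in L929 supernatant, which supplies M-CSF. Vehicle (control) or 20 ng/ml of IL-4 was then given for 1 h, and ChIP-seq was done after double crosslinking with DSG plus formaldehyde. With 1 sample per factor and condition there was no replicate, so no difference between conditions was tested, and depth is unknown. Libraries came from either of 2 kits, and which kit made which library, and whether mice were pooled, was not given in the sources used here. Kit, depth and IL-4 therefore cannot be told apart.

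TRIM proteins are mostly E3 ubiquitin ligases with a RING domain, B-boxes and a coiled coil, followed by a C-terminal part that differs between subfamilies. Several restrict viruses or adjust the signals of nucleic acid sensors, and many of these are induced by interferon. Interferon regulatory factors such as IRF8 bind the interferon-stimulated response element (ISRE), in which GAAA recurs at a fixed spacing, and also bind composite sites with ETS factors such as PU.1. C/EBPα and the AP-1 subunit JUNB mark macrophage enhancers, and IL-4 acts through STAT6.

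Sequences under IRF8 peaks at the starts of Trim genes are shown first, because near-identical sites recurred across the gene cluster of chromosome 7. Capitals mark ISRE letters (GAAA, 2 bases, GAAA) and ETS-IRF composite letters (GGAA, 2 bases, GAAA) on either strand, and matches may overlap. The bases were read from GRCm38, the assembly that mm10 names, on the strand of the gene. They come from chr7:104288133-104288162 (Trim5), chr7:104315463-104315492 (Trim12a), chr7:104353356-104353385 (Trim12c) and chr7:102565447-102565476 (Trim21), all on the minus strand.
Trim5: gttgtggTTTCTGTTTCATTTCCagagctc
Trim12a: gttgtggTTTCTGTTTCATTTCCagagctc
Trim12c: gttgtggTTTCTGTTTCATTTCCagctctc
Trim21: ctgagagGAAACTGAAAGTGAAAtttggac
The Trim5 and Trim12a stretches were identical at 30 of 30 bases, and Trim12c matched each of them at 28.

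A second pair of copies lay just upstream of Trim30a (chr7:104465200-104465249, minus strand) and Trim30d (chr7:104507861-104507910, minus strand). Outside these copies, Trim34a (chr7:104244457-104244486, plus strand) and Trim26 (chr17:36836966-36837021, plus strand) held an ISRE at the promoter.
Trim30a: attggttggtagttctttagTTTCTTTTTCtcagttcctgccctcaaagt
Trim30d: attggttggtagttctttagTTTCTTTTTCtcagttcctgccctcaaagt
Trim34a: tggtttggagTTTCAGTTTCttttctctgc
Trim26: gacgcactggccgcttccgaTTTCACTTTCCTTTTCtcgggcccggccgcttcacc
The Trim30a and Trim30d stretches were identical at 50 of 50 bases. Reads from such copies may be shared between genes, so the scores at Trim5, Trim12a, Trim12c, Trim30a and Trim30d are uncertain as values of single genes.

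The strongest IRF8 peaks away from promoters included an intergenic one annotated to Trim30b, with a tandem array in which 21 ISRE matches spanned 142 bases (chr7:104404608-104404789, minus strand). The other 2 are the highest of all, annotated 4.48 kb upstream of the Trim17 start (chr11:58959276-58959325, plus strand), and in the 3′ UTR of Trim45 (chr3:100932485-100932514, plus strand). By RefSeq the Trim17 gene spans chr11:58954671-58973075, so the Trim17 site lies inside it.
Trim30b: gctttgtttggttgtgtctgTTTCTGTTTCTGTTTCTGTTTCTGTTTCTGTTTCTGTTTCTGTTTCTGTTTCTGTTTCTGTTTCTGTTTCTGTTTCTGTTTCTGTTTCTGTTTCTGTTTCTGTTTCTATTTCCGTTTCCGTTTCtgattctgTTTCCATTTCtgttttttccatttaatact
Trim17: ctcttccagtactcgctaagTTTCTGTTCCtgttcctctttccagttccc
Trim45: cactgtcaggTTTCACTTCCttctcttagc
The deposited annotation called the Trim30b array A-rich low-complexity sequence, and how reads that fit several places were treated was not given in the sources used here. The Trim17 and Trim45 sites are single composite matches.

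IRF8 was the factor with the most peaks at Trim genes. It had 102 in control and 107 after IL-4, at 41 and 44 genes. C/EBPα had 67 and 66 peaks, at 32 and 31 genes, and JUNB had 12 and 5, at 8 and 5. IRF8 also had the longest lists, with 37525 and 42076 peaks. Trim peaks were 0.272% and 0.254% of them, 0.274% and 0.268% of the C/EBPα lists, and 0.305% and 0.215% of the JUNB lists. The order of the factors thus followed the lengths of the lists. Over both conditions, 46 of the 48 genes had an IRF8 peak, 35 a C/EBPα peak and 10 a JUNB peak. Only Trim6 and Trim29 had C/EBPα without IRF8, whereas 13 genes had IRF8 without C/EBPα.

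The peak score, which has no stated unit and was read as the −log10 of the caller's p-value or q-value, was close to the rest of the list for IRF8. The median over Trim peaks was 10.48 in control and 9.62 after IL-4, against 10.34 and 9.61 over all IRF8 peaks. For C/EBPα it was below the list, at 9.92 and 9.38 against 11.2 and 11.2. The IRF8 median hid a long upper tail. The score at the 90th percentile of the IRF8 lists was 53.4 and 53.0, and 17.6% of the control and 19.6% of the IL-4 Trim peaks exceeded it, where 10% of all peaks do by construction. For C/EBPα the shares were 4.48% and 6.06%.

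Part of that tail was at the interferon-linked and antiviral genes, and part was at other Trim genes. Control scores of 219 at Trim17, 218 at Trim45, 159 near Trim52 and 153 near Trim16 were outside this group. The score of 204 near Trim30b was in it. Of 16 interferon-linked or antiviral genes listed, 12 had a peak under their own name. Their 23 control and 25 IL-4 IRF8 peaks had median scores of 47.5 and 34.04, the highest of the groups. The 23 Trim genes in none of the listed groups had 50 and 52 IRF8 peaks with medians of 6.68 and 7.47. The chromatin cofactors Trim24, Trim28 and Trim33 had medians of 11.2 and 9.41, the NHL-repeat proteins Trim2, Trim3, Trim32 and Trim71 had 10.4 and 12.1, and the cytoskeletal or muscle genes had 6.67 and 10.04. C/EBPα showed no such order, with 8.44 and 7.44 at the interferon-linked genes and 9.33 and 15.0 at the genes outside the groups. The lists were drawn up with earlier results of these data known, and the difference was not tested.

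**Figure D1:**
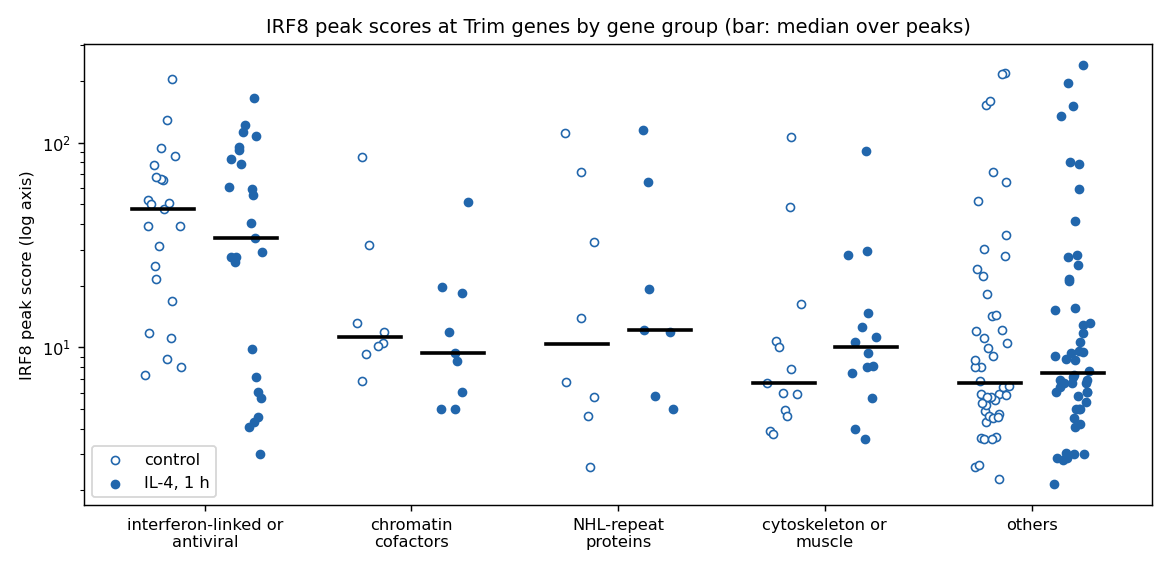
IRF8 peak scores at Trim genes (y axis, log scale, no stated unit) by gene group (x axis), with 1 point per peak, open for control and filled for IL-4, and a bar at the median over peaks. The interferon-linked medians, 47.5 and 34.04, were the highest of the groups, and single peaks above 100 also occurred among the others, such as those of Trim17 and Trim45.

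Promoter peaks, called by the deposited annotation, were 11 of 102 IRF8 peaks in control (10.8%, Wilson 95% interval 6.13 to 18.3) against 7.25% of all IRF8 peaks. After IL-4 they were 16 of 107 (15%, 9.42 to 22.9) against 9.16%. These intervals cover the counting of peaks only. The control interval holds the share of the whole list, and the IL-4 interval begins just above it. Among paired IRF8 Trim peaks, 3 changed class, from intron or 5′ UTR in control to promoter after IL-4. They were at Trim11, Trim12c and Trim56. The Trim12a promoter peak of control was named Gm15133 after IL-4 and was not counted there. The difference between 11 and 16 is therefore partly one of annotation. Counted within 2000 bp of a start, the control share was 20.6%, against 14.1% of the list. For C/EBPα the promoter peaks numbered 6 of 67 (8.96%, 4.17 to 18.2) and 6 of 66 (9.09%, 4.23 to 18.4), against 6.88% and 7.35% of all peaks. With only peaks scoring at least 10 this order turned, at 3.03% and 3.12% against 5.91% and 6.46%. JUNB had no promoter peak at a Trim gene among 12 and 5 peaks (Wilson upper bounds 24.2% and 43.4%), where 2.79% and 2.8% of its lists lay at promoters.

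The score of IRF8 at Trim promoters stood above that at promoters in general. Its median was 31.1 in control and 17.4 after IL-4, against 7.34 and 6.77 over all IRF8 promoter peaks. Of the Trim promoter peaks, 5 of 11 and 5 of 16 exceeded the 90th percentile of all IRF8 promoter peaks, which was 35.7 and 31.0. These medians and counts are over different peaks in control and after IL-4. The control set lacked peaks at Trim12c (77.5), Trim56 (68.0) and Trim11 (2.28), annotated otherwise there. The IL-4 set lacked Trim12a and held 3 peaks absent from control, which scored 4.24 to 6.40. The lower IL-4 median is therefore not a change at the same sites. Distal Trim peaks had medians of 9.88 and 9.41. None of the 6 and 6 C/EBPα promoter peaks at Trim genes exceeded the corresponding C/EBPα limit of 42.2 and 44.7.

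Among regions with a peak annotated as promoter, the highest IRF8 scores were at genes known from antiviral defence. At Trim56, whose protein binds viral RNA and acts in the STING and TLR3 pathways, the score was 68.0 in control and 113 after IL-4. At Trim12c it was 77.5 and 91.9, and at Trim26, which acts on IRF3 in the interferon response, 65.9 and 83.1. All 3 were higher after IL-4. The IRF8 peak over the start of Trim21 scored 86.3 in control and 122 after IL-4. It was annotated as intron and so is not among the promoter peaks.

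Trim25 encodes the ligase that modifies the RNA sensor RIG-I, and its promoter scored 52.7 in control and 60.8 after IL-4. The Trim34a promoter scored 50.5 and 55.4. The Trim12a promoter scored 39.1 in control, and a single wider peak over the same place scored 59.96 after IL-4. The last of these values needs care, because the IL-4 peak was named Gm15133 and also covered a separate control peak of 20.6. Trim12a therefore counted as retained, but had no IL-4 peak of its own name and entered no score ratio.

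The pair of promoters with identical sites scored lower after IL-4. Trim30a, whose protein restrains NF-κB signalling, scored 31.1 in control and 26.2 after IL-4. Trim30d scored 39.0 and 27.5. Trim28, the KAP1 corepressor of KRAB zinc finger proteins, had 13.2 and 19.7, and Trim35 had 14.2 and 15.2. The remaining IRF8 promoter regions, at Trim47, Trim27, Trim44, Trim11, Trim39 and Trim59, had scores of at most 12.1. Those that appeared only after IL-4, at Trim11 (1 of its 2 regions), Trim39 and Trim59, scored 6.40, 5.40 and 4.24.

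Of 17 Trim promoter regions with IRF8, 14 had it in both conditions, and 11 of these scored higher and 3 lower after IL-4. Over all 29110 IRF8 pairs, promoter or not, 16138 were higher and 12951 lower. Among the 13 one-to-one Trim promoter pairs, the median log2 ratio of IL-4 over control was 0.21 (95% interval over peaks −0.05 to 0.64). The median over all IRF8 pairs was 0.08. Scores at least 1.5 times higher were seen at 3 pairs (23.1%, against 23.6% of all IRF8 pairs). Scores at least 1.5 times lower were seen at 0 (against 17.5%). All 11 control promoter peaks overlapped an IL-4 peak, against 75.7% of all IRF8 control promoter peaks. Among the IL-4 promoter peaks, 3 of 16 (18.8%) were absent from control, against 48% of all IRF8 IL-4 promoter peaks.

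C/EBPα occupied some of the same promoters. Scores of different factors are not ranked here, because the score rises with depth, which is unknown. In the Trim12a region C/EBPα scored 42.1 in control and 36.8 after IL-4. Its control peak there overlapped the separate IRF8 peak of 20.6 and not the Trim12a peak of 39.1. At Trim56 C/EBPα scored 33.4 in control and 21.9 after IL-4, which was opposite in direction to IRF8 at that region. At Trim12c it had no control peak and scored 5.56 after IL-4. At Trim39 it scored 4.51 and 7.42, and at Trim35 8.00 and 5.55. Trim16, which encodes an autophagy-linked protein, had a C/EBPα promoter peak of 8.17 in control only, and Trim33, a SMAD cofactor, had one of 3.74 after IL-4 only.

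**Figure D2:**
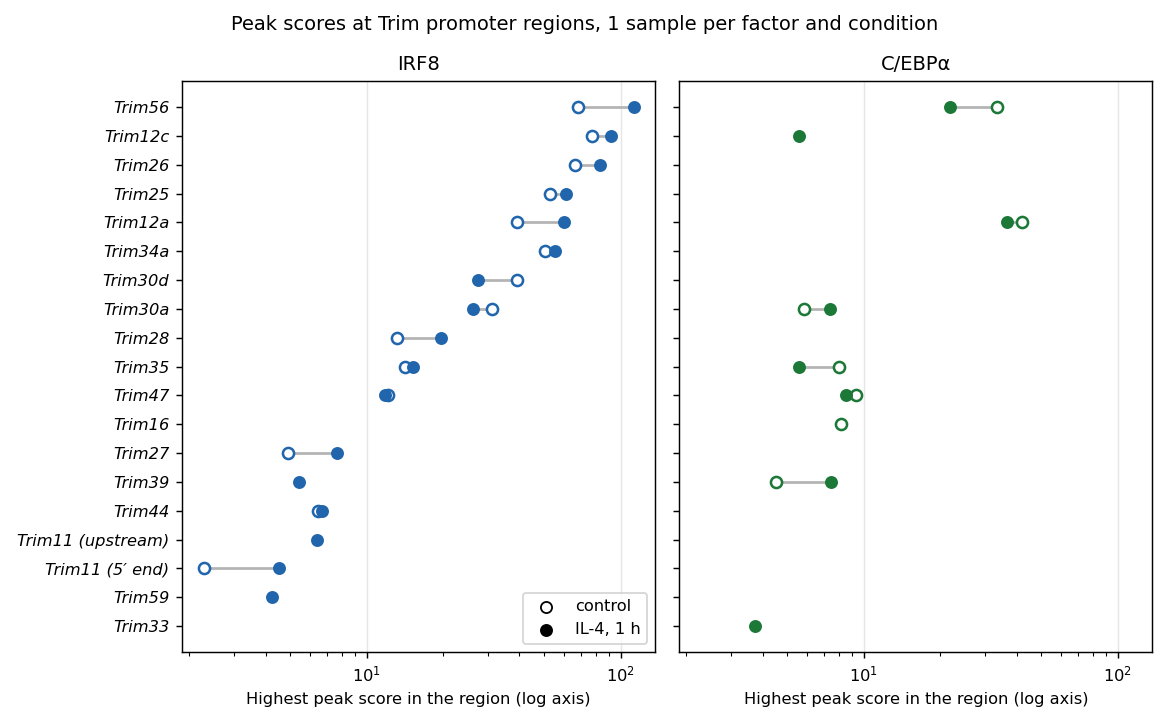
Highest peak score (x axis, log scale, no stated unit) in each of 19 Trim promoter regions for IRF8 (left) and C/EBPα (right), open circles for control and filled for IL-4, 1 sample each. IRF8 at Trim56 went from 68.0 to 113 while C/EBPα there went from 33.4 to 21.9. The C/EBPα points in the Trim12a row come from a peak named Gm15133.

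Positions of start sites in RefSeq added genes that the deposited names had passed over. Of 53 Trim genes with a RefSeq promoter entry, 20 had an IRF8 peak of any name between 1000 bases before and 100 after the start. Of these, 16 had it in both conditions, with 12 higher and 4 lower after IL-4. The peak was under a name other than a Trim gene at Trim5, Trim23 and Trim80. Trim5, a close relative of the primate retrovirus restriction factor, was covered by an IRF8 peak of 55.6 in control and 79.1 after IL-4, which the files named Gm15133 at a distance of 27 kb. Its site is the one identical to that of Trim12a.

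Trim30c was in a like position. The peak annotated 42.3 kb upstream of Trim30b lay 77 and 42 bp upstream of the RefSeq start of Trim30c, with IRF8 at 8.76 in control and 34.04 after IL-4. This was a 3.89-fold difference in score, the largest increase at any paired IRF8 region of the Trim genes. A C/EBPα peak of 7.51 was found there after IL-4 only. The tandem array peak, annotated 46.1 kb upstream of Trim30b, lay 3.86 kb upstream of the same start.

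The IRF8 peaks at starts went together with the ISRE letters. Within 250 bases before to 50 after the RefSeq start, 9 of 53 Trim genes held an ISRE (17%), against 1079 of 27025 genes (3.99%). They were Trim2, Trim5, Trim12a, Trim12c, Trim21, Trim26, Trim30a, Trim30d and Trim34a, all but Trim2 with an IRF8 peak at the start. Thus 8 of 9 had IRF8 (88.9%, 56.5 to 98.0), where 321 of 1079 genes of any kind with the element did (29.7%). Without the element, 12 of 44 Trim genes (27.3%) and 18.5% of genes of any kind had an IRF8 peak. The 9 genes are not independent, since Trim5, Trim12a, Trim12c, Trim30a and Trim30d carry copies of 2 sequences. Neither motif was found in the Trim56 promoter region, where IRF8 scored 113 after IL-4.

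Over all Trim peaks the motifs were close to the lists. Within 200 bp around the centre, the ISRE was in 10.8% of IRF8 control peaks at Trim genes and in 9.7% of all. A C/EBP motif (TTGC and AA with 2 bases between) was in 35.8% of the C/EBPα control peaks against 34.3%. A STAT6-type site (TTC and GAA with 3 or 4 bases between) was in 9.8% of IRF8 Trim peaks in control and 15% after IL-4, against 12.7% and 15.7% of the lists. In C/EBPα Trim peaks it was in 16.4% and 12.1%, against 12.9% and 17.6%.

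The chromosome 7 cluster holds the close relatives Trim5, Trim6, Trim12a, Trim12c, Trim30a to Trim30d, Trim34a and Trim34b within 289 kb. Its Trim-named peaks numbered 13 in control and 12 after IL-4 for IRF8, 5 and 8 for C/EBPα, and 0 and 0 for JUNB. The array peak was the highest, with IRF8 at 204 in control and 165 after IL-4. The intergenic peak annotated 40.1 kb upstream of Trim30b scored 66.3 and 95.6. A region in an intron of Trim30a scored 16.9 and 29.3. C/EBPα was present only after IL-4 at Trim12c, at the Trim30c start, 40.1 kb upstream of Trim30b (3.48) and 5.68 kb upstream of Trim30d, where its score was 10.2. It was present only in control 7.88 kb upstream of Trim30b, where the score was 16.0.

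**Figure D3:**
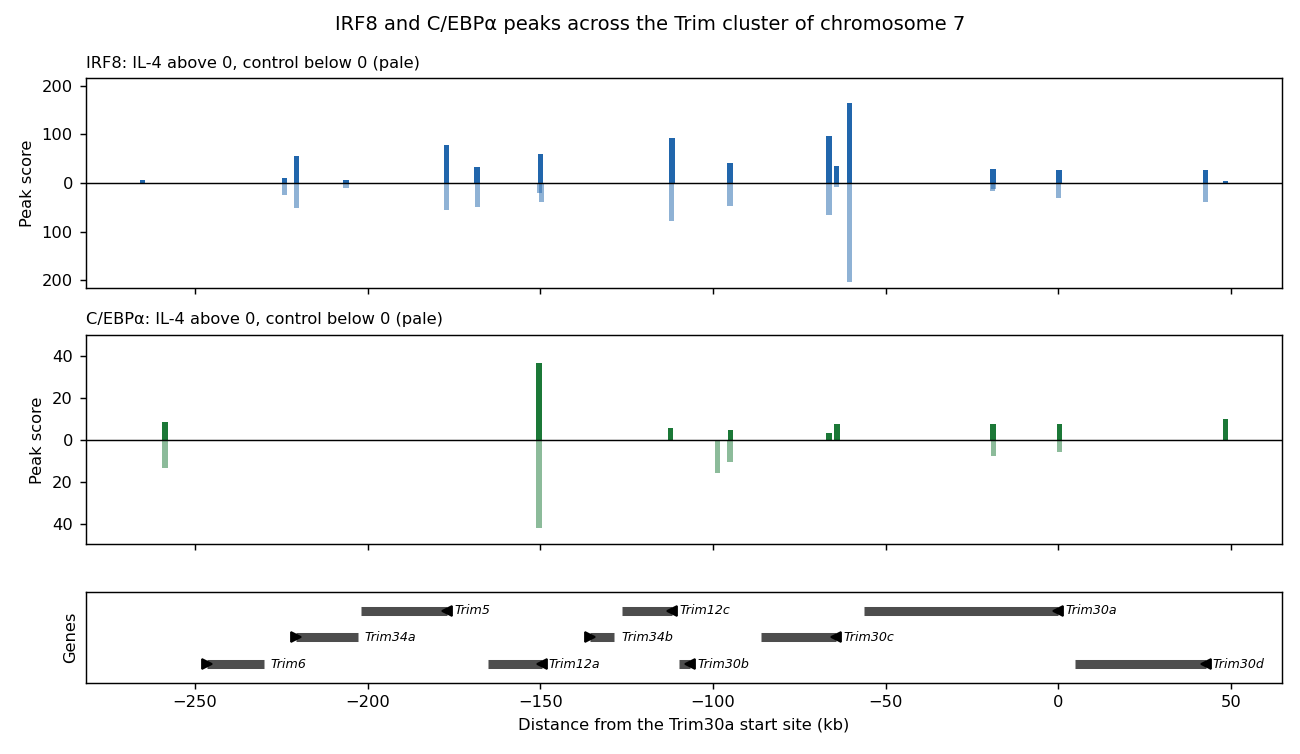
Scores of all IRF8 (top) and C/EBPα (middle) peaks across the cluster (y axis, no stated unit), with IL-4 drawn above 0 and control below, against the distance from the Trim30a start site in kb, and RefSeq gene bodies at the bottom with an arrowhead at each start. IRF8 peaks sat at the starts of Trim34a, Trim5, Trim12a, Trim12c, Trim30c, Trim30a and Trim30d, and the tallest, 204 in control and 165 after IL-4, was the tandem array.

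Most Trim peaks of C/EBPα and IRF8 were found in both conditions, at shares near those of their lists. Of 67 C/EBPα control peaks, 51 were retained (76.1%, 64.7 to 84.7), and 16 were control-only (23.9%, against 21.4% of the list). Of 66 IL-4 peaks, 15 were IL-4-only (22.7%, against 22% of the list). For IRF8, 84 of 102 control peaks were retained (82.4%, 73.8 to 88.5), and 18 were control-only (17.6%, against 21.4%). The IL-4-only IRF8 peaks numbered 25 of 107 (23.4%, against 30.4%).

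JUNB had few members. Of its 12 control peaks, 3 were retained (25%, 8.89 to 53.2) and 9 were control-only (75%, against 64.2% of the list). Of 5 IL-4 peaks, 2 were IL-4-only (40%, against 39.2%). The whole JUNB list was shorter after IL-4, with 2325 peaks against 3940, and with both lists cut to the same length the control-only Trim peaks were 4.

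Low scores marked the IRF8 and C/EBPα peaks that were found in 1 condition. The median score of IRF8 control-only peaks at Trim genes was 5.68, against 13.6 for retained ones, and that of C/EBPα was 7.39 against 13.3. None of the IRF8 peaks found in 1 condition exceeded 9.05. With only peaks that scored at least 10 in both lists, the IL-4-only and control-only counts were 9 and 8 for IRF8 and 5 and 7 for C/EBPα, and every IRF8 peak among these overlapped a peak under that limit in the other list.

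At paired peaks, the C/EBPα score was lower after IL-4 at most Trim peaks. The median log2 ratio was −0.15 over 50 pairs (−0.28 to −0.02), and 34 pairs were lower and 16 higher, while the median over all 19111 pairs was 0.00. At least 1.5-fold higher scores were seen at 6 pairs (12%, against 17.7% of all pairs) and at least 1.5-fold lower ones at 8 (16%, against 17.8%). For IRF8 the median was 0.16 over 82 pairs (−0.01 to 0.36, against 0.08 over all pairs), with 22 at least 1.5 times higher (26.8%, against 23.6%) and 14 lower (17.1%, against 17.5%). These intervals are over peaks within a single pair of samples.

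The 3 JUNB pairs were all lower after IL-4. The scores were 18.5 and 4.38 at 36.1 kb upstream of Trim56, 18.6 and 8.56 at 138 kb upstream of Trim24, and 10.2 and 5.26 in the Trim45 3′ UTR. All were at least 1.5 times lower, where 47.9% of all JUNB pairs were, and 9.6% of all JUNB pairs were at least 1.5 times higher. Dividing the scores by the list medians adds 0.34 to the JUNB log2 ratios, 0.11 to those of IRF8 and 0.00 to those of C/EBPα, and left the direction of all 3 medians as it was.

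**Figure D4:**
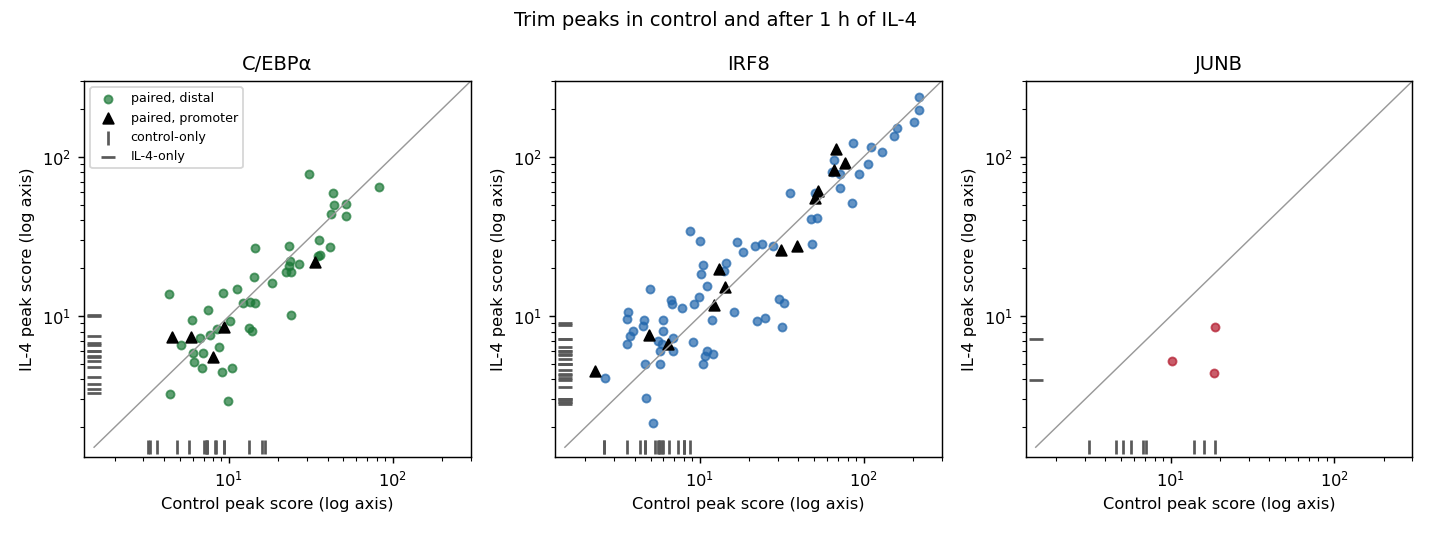
IL-4 against control peak score (log axes, no stated unit) for paired Trim peaks of each factor, with promoter pairs as triangles and the line of equal scores. Ticks along the lower and left edges are peaks found in 1 condition only, all of them below 20, and the 3 JUNB pairs lie below the line.

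The highest-scoring distal sites had similar scores in both conditions. IRF8 at the Trim17 site scored 219 in control and 240 after IL-4, the highest Trim value in both lists. At the Trim45 3′ UTR it scored 218 and 196. At 70.7 kb upstream of Trim52 it scored 159 and 151, and at 12.1 kb upstream of Trim16 153 and 136. Trim21 encodes the cytosolic antibody receptor. It had an IRF8 region over its start, counted as distal because it was annotated as intron, at 86.3 and 122. Another, 2.47 kb upstream, scored 129 and 108. These pairs differed by less than 1.5-fold.

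Larger differences were found at other distal sites. C/EBPα at 15 kb from the Trim72 start, a muscle membrane repair gene, scored 30.9 in control and 77.8 after IL-4, the highest C/EBPα Trim value after IL-4. Its highest control value, 83.0 near Trim52, was 64.8 after IL-4. IRF8 scored 31.7 in control and 8.53 after IL-4 at 3.67 kb upstream of Trim24, and 32.9 and 12.1 in an intron of Trim3, whose protein acts in endosomal trafficking. At 18.2 kb upstream of Trim59 C/EBPα scored 4.32 and 13.9, while IRF8 scored 52.0 and 41.2.

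Control-only peaks (losses) and IL-4-only peaks (gains) were spread over 34 genes, and 14 genes had none. Trim52 had the most, with 10 control-only peaks and 1 IL-4-only peak. Trim52, Trim8, Trim36 and Trim56, which led these counts, also had the most Trim peaks over all lists, at 29, 26, 23 and 21. Differences between genes were not tested. The Trim52 losses were 5 of 8 C/EBPα, 3 of 9 IRF8 and 2 of 2 JUNB control peaks. In the lists 21.4%, 21.4% and 64.2% were control-only. All Trim52 peaks lay 6.82 kb or more from the start, and up to 154 kb, so the name gives the nearest start and no more. At 94 kb upstream of Trim52 all 3 factors had a peak in control, with C/EBPα at 7.39, IRF8 at 5.95 and JUNB at 13.8, and none had one after IL-4. At 52.8 kb upstream C/EBPα (13.2) and IRF8 (8.04) were control-only together.

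Trim36, a microtubule-associated ligase, had 4 IL-4-only peaks and 1 control-only peak. Its gains were 2 of 3 C/EBPα (4.82 and 3.28), 1 of 9 IRF8 (3.56) and 1 of 1 JUNB (3.99) IL-4 peaks. All were low in score. In the lists 22%, 30.4% and 39.2% were IL-4-only. Trim8, a regulator of cytokine signalling through SOCS1, had 2 gains and 3 losses, and its C/EBPα gain 18.5 kb upstream scored 10.1. Trim27 had 3 IRF8 losses, with scores of 5.65, 4.61 and 2.59.

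Trim56 had 2 gains and 2 losses of IRF8, but a loss of 8.04 and a gain of 3.02 fell in the same region 63.9 kb upstream, where the peaks did not touch. Trim14, a mitochondrial adaptor of RNA sensing, had no IRF8 peak in control and 2 after IL-4, at 5.67 and 4.1. Trim59 had 2 gains and 1 loss of IRF8, the loss being 8.67, the highest IRF8 loss, and Trim72 had 2 gains and 1 loss, the gain of 9.05 being the highest IRF8 gain. An IRF8 gain of 8.75 lay 2.43 kb upstream of Trim7, where a C/EBPα peak of 7.05 was control-only. IRF8 gains of 7.13 lay 36.1 kb upstream of Trim56 and 6.82 kb upstream of Trim52. Trim16, Trim24 and Trim69 had 1 gain and 2 losses each, and Trim30b had 2 gains and 1 loss. The highest C/EBPα loss was 16.5, at 157 kb upstream of Trim24.

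**Figure D5:**
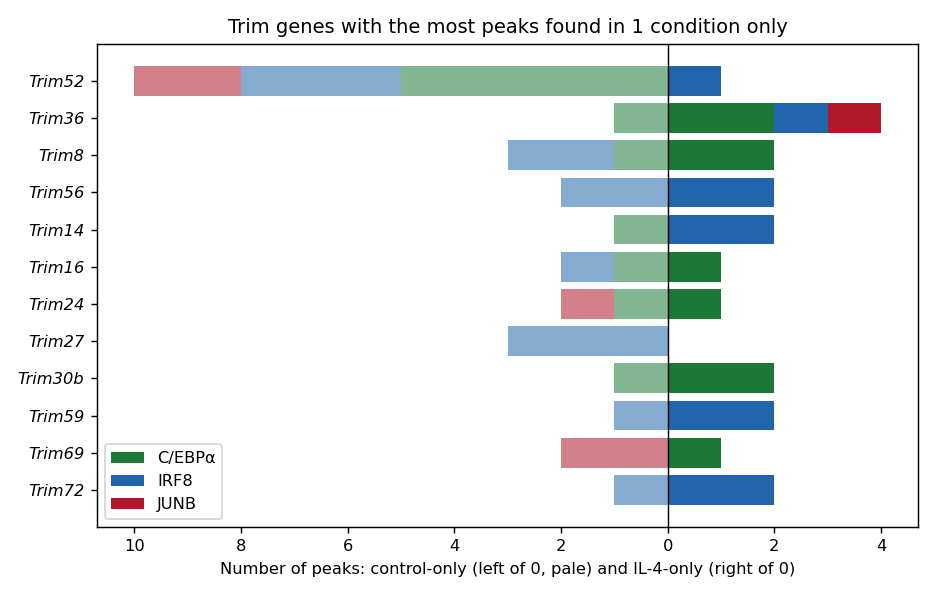
Number of peaks found only in control (left of 0, pale) or only after IL-4 (right of 0) for the 12 Trim genes with the most of them, stacked by factor. Trim52 had 10 control-only peaks of all 3 factors, and Trim36 had 4 IL-4-only peaks. Counts are not scaled to the number of peaks of each gene.

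By group, the 12 interferon-linked genes with peaks had 12 gains and 5 losses over the 3 factors, of which 7 genes carried all. Their gains were 6 of 20 C/EBPα and 6 of 25 IRF8 IL-4 peaks, where 22% and 30.4% of the lists were IL-4-only. Their losses were 2 of 15 C/EBPα, 2 of 23 IRF8 and 1 of 2 JUNB control peaks. In the lists 21.4%, 21.4% and 64.2% were control-only. The NHL-repeat genes had 1 gain and 4 losses, the chromatin cofactors 3 and 2, and the cytoskeletal or muscle genes 6 and 3. In the order C/EBPα, IRF8 and JUNB, the NHL-repeat gains were 0 of 4, 1 of 7 and 0 of 0 peaks. Their losses were 1 of 5, 2 of 8 and 1 of 1. Chromatin cofactors gained 2 of 8, 1 of 9 and 0 of 1, and lost 1 of 7, 0 of 8 and 1 of 2. The cytoskeletal or muscle genes gained 3 of 6, 2 of 14 and 1 of 1. They lost 1 of 4, 1 of 13 and 1 of 1. The JUNB list was 39.2% IL-4-only. The other 23 genes had 20 gains and 29 losses. Without Trim52 this last group had 19 gains and 19 losses. With Trim52 its gains were 4 of 28 C/EBPα, 15 of 52 IRF8 and 1 of 2 JUNB IL-4 peaks. Its losses were 11 of 36, 13 of 50 and 5 of 6 control peaks. Differences between groups were not tested.

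The JUNB control sites were read for the AP-1 motif (TGANTCA, both strands), because the highest score of any Trim peak found in control alone, 18.7, was a JUNB score. The motif was in 6 of 12 JUNB Trim peaks in control, retained and control-only together, against 55.3% of the list. Only sites with a match are printed. The stretches are from the site 33.1 kb upstream of Trim45 (chr3:100889347-100889393, plus strand) and the site 94 kb upstream of Trim52 (chr14:106012158-106012204, plus strand), with the retained site of Trim24 for comparison (chr6:37732485-37732531, plus strand). Capitals mark the motif.
Trim45: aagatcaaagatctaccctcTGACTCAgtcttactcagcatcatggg
Trim52: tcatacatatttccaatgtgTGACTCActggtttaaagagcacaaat
Trim24: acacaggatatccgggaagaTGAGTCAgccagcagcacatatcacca
JUNB scored 18.7 at the Trim45 site and 13.8 at the Trim52 site in control, and neither was in the IL-4 list. C/EBPα was in both lists at the Trim45 site, at 5.91 in control and 9.43 after IL-4. Another strong loss, 25 kb from the Trim25 start, scored 16.0 for JUNB, while IRF8 there scored 94.0 and 78.3. That region held no AP-1 match. The JUNB gains were at the Trim17 site (7.18) and in Trim36 (3.99).

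All 3 factors met at 8 Trim regions in control and 5 after IL-4, and in both conditions at 2. These were 6.02% and 3.91% of the Trim regions bound by any factor in control and after IL-4, near the 5.38% and 3.08% of all bound regions. In the Trim24 region C/EBPα scored 36.0 and 24.3, IRF8 10.5 and 4.99, and JUNB 18.6 and 8.56. In the Trim45 3′ UTR C/EBPα scored 23.8 and 18.9, beside the IRF8 and JUNB values given above. All 6 of these pairs were lower after IL-4.

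C/EBPα peaks at Trim genes overlapped IRF8 peaks more often after IL-4, in 45 of 66 (68.2%, 56.2 to 78.2) against 36 of 67 in control (53.7%, 41.9 to 65.1). The intervals overlap, and the shares of all C/EBPα peaks were 60.6% and 58.1%. Of the IRF8 peaks, 41.1% overlapped C/EBPα after IL-4 and 34.3% in control, against 35.3% and 37.9%. Of 154 Trim regions, both factors were gained together at 1, lost together at 3, all annotated to Trim52, and moved oppositely at 1 each way. Over all 60847 regions, 751 were gained together and 370 lost together, while 204 gained C/EBPα and lost IRF8 and 313 did the reverse.

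Genes tied to the family were read for comparison. Of the TRIM proteins with other symbols, Pml, Mid1 and Mefv had peaks and Mid2 had none. Pml, the core of nuclear bodies, had IRF8 scores of up to 62.2 in control and 81.1 after IL-4. Of 8 partners in RNA and DNA sensing, 7 had a peak and Irf3 had none, and 4 had an IRF8 promoter peak. Among the partners' peaks, 5 of 33 IRF8 control peaks were lost (15.2%, against 21.4% of the list) and 5 of 33 IL-4 peaks gained (15.2%, against 30.4%). For C/EBPα 2 of 14 were lost (14.3%, against 21.4%) and 5 of 18 gained (27.8%, against 22%), and for JUNB 5 of 6 were lost (83.3%, against 64.2%) and 0 of 1 gained (against 39.2%). All 5 macrophage genes read, Csf1r, Emr1, Itgam, Sfpi1 and Cd68, had peaks, between 7 and 39 each, while the T cell gene Cd3e had 0 and the NK cell gene Ncr1 had 3.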

How the data were processed

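C/EBPα, IRF8 and JUNB ChIP-seq peak lists from 6 mouse macrophage samples were analysed. According to the submitters' processing notes, BWA 0.7.10, SAMtools 0.1.19, MACS2 2.0.10 and HOMER 4.2 were used with mm10. The peak score deposited by the authors has no stated unit and was read as the −log10 of the caller's p-value or q-value. The score rises with depth, which the files do not give. Distances and annotation were used as deposited. Coordinates are 1-based as in the files, with 1 bp of uncertainty, and 0 peaks ended past a chromosome of the supplied GRCm38 genome.

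Control and IL-4 peaks of a factor that overlapped by at least 1 bp were called shared, and others control-only or IL-4-only. Pairs for score ratios were one-to-one, formed by the largest overlap. Regions merged the peaks of all 6 lists that overlapped, and took the highest score of each sample. Promoter peaks were those annotated promoter-TSS, and the rest were distal, also where they lay near a start in an intron, exon or 5′ UTR. Shares carry Wilson 95% intervals, and medians order-statistic intervals (the range for small n). A score change was counted at 1.5-fold. Motifs were searched as exact letters within 200 bp on both strands. Named genes were the 12 with the most gains and losses, the 3 strongest gains and losses of each factor, promoter genes, the highest peak of each list and regions with all 3 factors. Further regions were chosen after their values were seen. RefSeq starts (GRCm38.p6) were read for 53 of 68 Trim genes. The members and gene lists were chosen with earlier results of these data known. With 1 sample per group no test was run. One of the marker genes read for other cell types is not reported here.

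Scripts used pandas 2.3.3 and numpy 2.4.6 under Python 3.11.15, with scipy 1.17.1 for intervals and matplotlib 3.10.9 for figures, and were tested on simulated data. Alternatives changed the overlap, the score limit, the list length, the score scaling, the promoter distance and the distance to the gene.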

Additional observations from a re-analysis of the deposited data

Results flagged for a closer look

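The number of Trim peaks moved differently by factor. The ratio of IL-4 over control counts was 0.985 for C/EBPα and 1.05 for IRF8, and 0.417 for JUNB, whose whole list was also shorter after IL-4. At the Trim56 promoter region the score ratio of IL-4 over control was 0.655 for C/EBPα and 1.66 for IRF8. These differences in direction were not tested, since each rests on 1 sample per condition.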

How the results depend on the processing

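Of 58 recomputed values, 47 stayed within the spread set for them and 11 moved. With only peaks scoring at least 10, the C/EBPα IL-4-only peaks fell from 15 to 5 and the control-only peaks from 16 to 7, those of IRF8 from 25 to 9 and from 18 to 8, and the JUNB IL-4-only peaks from 2 to 0. At that limit 0% of the JUNB control peaks were retained, and the C/EBPα promoter shares were 3.03% in control and 3.12% after IL-4, below the 5.91% and 6.46% of the lists, where without the limit they were above the lists. With promoters taken as peaks within 2000 bp of a start, the IRF8 control share was 20.6%, against 14.1% of all IRF8 peaks. With lists of equal length the JUNB losses were 4 in place of 9. Dividing by list medians moved the JUNB median log2 ratio to −0.77. No JUNB score ratio or IL-4 promoter share could be had at a score of at least 10. No replicate could be left out. No paired analysis was possible because each group had 1 sample and no comparison was tested. Depth is unknown, so peaks absent from 1 list may be present below its limit.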
